A study of Arabidopsis thaliana with 2 samples.

Results

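The 9 ATG8 genes of Arabidopsis thaliana, ATG8A to ATG8I, were taken from the deposited expression table by their TAIR identifiers, and all 9 were found among its 18617 rows. The table compares shoots of wild-type seedlings of the Col-0 accession with those of bts-1 mutant seedlings, in both cases on sucrose-free Murashige and Skoog medium (1/2 MS in the labels). The BTS gene (BRUTUS) codes for a ubiquitin ligase that restrains the iron-deficiency response, and the series asks how it bears on the energy state of leaf tissue. Total RNA was sequenced from 1 library per genotype. The nature of the bts-1 allele, the age of the seedlings and the number of plants behind each library are not stated in the labels. With 1 library per genotype there is no measure of replicate error and no p-value, so every difference below is a difference between a pair of libraries. Fewer cells of a type and less RNA per cell cannot be told apart in such bulk samples.

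Autophagy carries cytoplasm to the vacuole inside a double-membrane vesicle, the autophagosome. ATG8 is a small ubiquitin-like protein that the protease ATG4 trims to a terminal glycine, after which ATG7 and ATG3 attach it to the lipid phosphatidylethanolamine on the growing membrane. There it recruits cargo receptors and helps the vesicle to close. In plants ATG8 transcripts are known to accumulate when carbon or nitrogen runs short and during leaf senescence. Plant ATG8 proteins fall into a clade with residues after the glycine, here ATG8A to ATG8G, and a clade that ends at it, here ATG8H and ATG8I. Within the first clade ATG8A to ATG8D and ATG8E to ATG8G form separate branches.

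That difference can be read from the last 42 coding bases of each gene, stop codon included, shown because they set ATG8H and ATG8I apart from the other members. They come from the RefSeq annotation of the TAIR10.1 assembly, from the longest coding sequence of each gene, and capitals mark the glycine codon of the shared threonine-phenylalanine-glycine stretch.
ATG8A: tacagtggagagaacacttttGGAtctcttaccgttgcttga
ATG8B: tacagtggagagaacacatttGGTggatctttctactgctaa
ATG8C: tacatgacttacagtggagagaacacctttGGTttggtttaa
ATG8D: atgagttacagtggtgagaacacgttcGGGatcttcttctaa
ATG8E: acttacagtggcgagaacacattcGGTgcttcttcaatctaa
ATG8F: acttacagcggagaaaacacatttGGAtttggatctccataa
ATG8G: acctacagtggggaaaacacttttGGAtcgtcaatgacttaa
ATG8H: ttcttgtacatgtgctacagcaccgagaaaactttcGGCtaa
ATG8I: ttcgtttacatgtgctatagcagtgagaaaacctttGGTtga
ATG8H and ATG8I stop directly after that codon, while the other 7 genes have 2 to 5 further codons. Over all 36 pairs the aligned coding sequences were 56.9% to 84.8% identical, with 69.8% to 84.8% among ATG8A to ATG8D, 70.0% to 78.1% among ATG8E to ATG8G and 68.4% between ATG8H and ATG8I. Pairs from different groups were 56.9% to 73.2% identical, a range that overlaps those within the groups. Only ATG8A and ATG8B, the most alike pair, shared any stretch of 50 identical coding bases. Reads could therefore be split wrongly between that pair more readily than between the others.

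The bts-1 label was first checked on BTS itself. BTS (AT3G18290) stood at 10.84 in the wild-type library and 9.57 in the bts-1 library on the deposited scale, log2(FPKM + 1), where FPKM is sequenced fragments scaled by transcript length and library size. Its log2 ratio, always bts-1 minus Col-0, was -1.27. BTS is on chromosome 3, where levels appear to depend on the exon length of the next gene. With its FPKM multiplied by that length and divided by its own, its levels were 6.63 and 5.38 and its ratio was -1.25. The shoot label was checked on 5 leaf genes, among them those of the Rubisco small subunit RBCS1A and of light-harvesting proteins. They lay between 10.60 and 12.41 in Col-0 and between 10.68 and 12.17 in bts-1. Of 5 root markers 3 had a value, all with a positive ratio, up to 0.56 for PHT1;1 (AT5G43350). The summed FPKM of those 3 was 1069 in Col-0 and 1175 in bts-1, nearly all of it from PYK10 (AT3G09260), also on chromosome 3. PYK10 stood at 10.06 in Col-0 and 10.19 in bts-1 as deposited. With the same rescaling it remained high, at 9.65 and 9.78. The part of root tissue in the ATG8 ratios was not tested.

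Of the 9 ATG8 genes 7, or 77.8%, were higher in the bts-1 library, beside 54.8% of all tested genes, and 2 were lower. The genes of the ATG8E to ATG8G branch held the 3 highest ratios, those of ATG8A to ATG8D lay close to 0, and ATG8H and ATG8I went in opposite directions. The median ratio of the 9 genes was 0.19, against 0.04 for all 18510 tested genes, those that reached an FPKM of 1 in one library or both. All 9 ATG8 genes passed that minimum in both libraries. The plot of levels by library shows the 9 pairs of values.

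**Figure D1:**
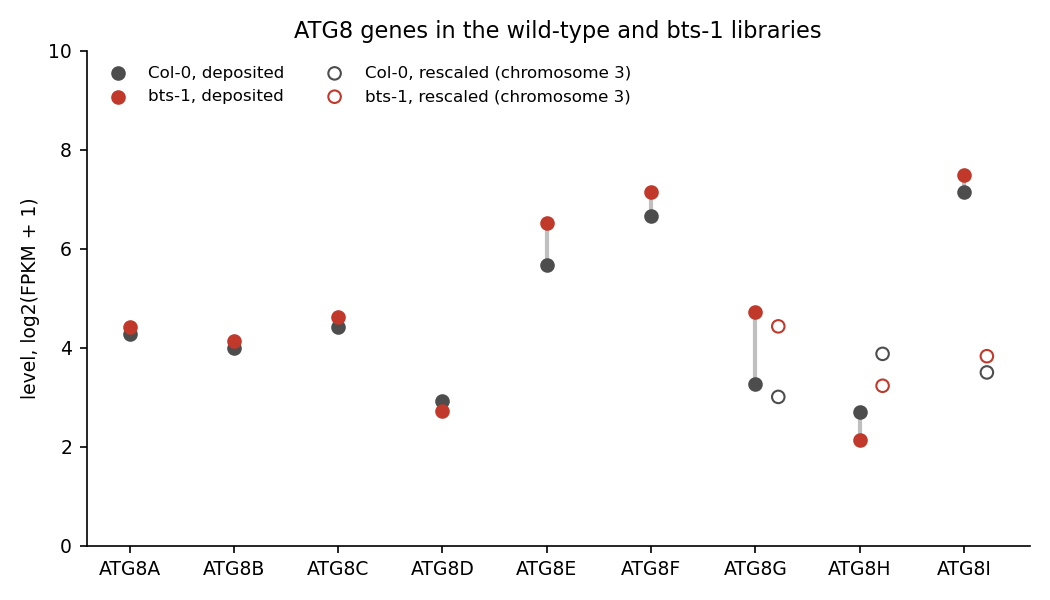
Level of each ATG8 gene, log2(FPKM + 1), in the Col-0 library (grey) and the bts-1 library (red), with grey bars joining the deposited values. Open circles give the 3 chromosome 3 genes after rescaling by exon length; ATG8G has the widest gap, 3.27 against 4.71, and ATG8I drops from 7.14 to 3.50 in Col-0 on rescaling.

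ATG8E (AT2G45170), which is widely used as a fluorescent marker of autophagosomes, stood at 5.68 in Col-0 and 6.52 in bts-1, a log2 ratio of 0.84. In linear terms its FPKM was 50.2 and 90.6, a 1.81-fold difference. Among all tested genes 3.22% had a ratio as high or higher. ATG8F (AT4G16520) had levels of 6.66 and 7.15, or FPKM values of 99.99 and 141, and a log2 ratio of 0.49. It was below the 1.5-fold mark, with 10.6% of tested genes at or above its ratio. ATG8E and ATG8F were the highest of the 6 ATG8 genes outside chromosome 3 in both libraries.

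ATG8G (AT3G60640) belongs to the same branch and stood at 3.27 in Col-0 and 4.71 in bts-1, a log2 ratio of 1.45. Its FPKM was 8.62 and 25.2, a 2.92-fold difference. Among tested genes 0.486% had a ratio as high or higher. It had the widest ratio of the family. In wild type it stood above 40.7% of tested genes as deposited, and ATG8E and ATG8F above 84.7% and 92.9%.

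ATG8A, ATG8B and ATG8C had similar levels and small positive ratios. ATG8A (AT4G21980, given the older symbol APG8A in the table) stood at 4.29 and 4.42, a ratio of 0.14. The last 27 bases of its annotated span overlap AT4G21990 on the opposite strand, annotated as 5'-adenylylsulfate reductase 3, an enzyme of sulfate assimilation. That neighbour stood at 6.50 in Col-0 and 3.90 in bts-1, a ratio of -2.60. The libraries were made with a directional kit, but no label says whether the counting used the strand, and the part of the overlap in the ATG8A value was not tested.

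ATG8B (AT4G04620) had FPKM values of 15.0 and 16.5, a log2 ratio of 0.13, and ATG8C (AT1G62040) had levels of 4.42 and 4.61, a ratio of 0.19. ATG8D (AT2G05630), the lowest of the 6 genes outside chromosome 3, stood at 2.92 in Col-0 and 2.72 in bts-1, a ratio of -0.20. All 4 ratios of this branch lie between the 25th and 75th percentiles of tested genes, which are -0.21 and 0.27.

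The clade that ends at the glycine was split. ATG8H (AT3G06420) stood at 2.70 in Col-0 and 2.13 in bts-1, a log2 ratio of -0.57, with 9.62% of tested genes as low or lower. Its FPKM was 5.49 and 3.37. ATG8I (AT3G15580), for which the table gives the symbol APG8H beside the description autophagy-related protein 8i, stood at 7.14 and 7.50, a ratio of 0.35. The older symbol does not refer to ATG8H. The span of ATG8I overlaps AT3G15578 on the opposite strand over 183 bases. No value for AT3G15578 was found among the annotated genes.

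ATG8G, ATG8H and ATG8I lie on chromosome 3, and the levels of that chromosome are uncertain. Across its genes the wild-type level was lower where the gene that follows in identifier order has longer exons. With the own length in the fit, the slope was -0.58 on log2 scales (SE 0.03 over 3524 genes). On the other 4 chromosomes it was -0.02 to 0.04. The slope on the own length was 0.72 on chromosome 3 and 0.04 to 0.11 on the others. Rescaling by the full ratio of the lengths, as used here, is a stronger correction than these fitted slopes. The gene after ATG8I is a transfer RNA gene of 73 bases. On chromosome 3 the 79 genes followed by a transfer RNA gene had a median wild-type level of 7.92, against 3.93 for the 3269 genes followed by a protein-coding gene. On the other chromosomes the medians before a transfer RNA gene were 3.24 to 4.14. The listed level of ATG8I, 7.14, is therefore near that of other chromosome 3 genes in the same position.

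**Figure D2:**
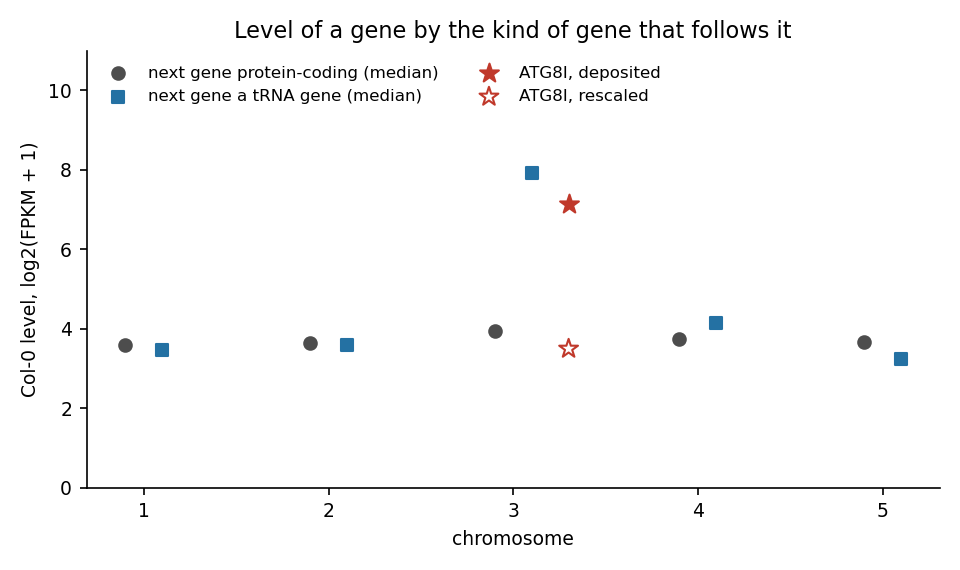
Median wild-type level, log2(FPKM + 1), of genes followed by a protein-coding gene (grey circles) or by a transfer RNA gene (blue squares) on each chromosome. The 2 medians are 3.93 and 7.92 on chromosome 3 and within 0.5 of each other elsewhere; stars mark ATG8I as deposited (7.14) and after rescaling (3.50).

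With each chromosome 3 value multiplied by the next gene's exon length and divided by its own, ATG8I stood at 3.50 in Col-0 and 3.83 in bts-1, ATG8G at 3.01 and 4.43 and ATG8H at 3.88 and 3.23. The order of levels changed with this step. As deposited ATG8I had rank 1 of the 9 genes in both libraries, and after rescaling it had rank 7 in both, with ATG8F at rank 1 and ATG8E at rank 2. The drop rests on counting the transfer RNA gene as the next gene: with such genes skipped, an alternative added with the values already known, ATG8I stood at 8.39 and 8.75 and kept rank 1 in both. The ratios changed little, to 0.33 for ATG8I, 1.43 for ATG8G and -0.65 for ATG8H, since the same factor applies to both libraries. As deposited and with transfer RNA genes counted, ATG8G stood higher in the order in bts-1, at rank 4, than in Col-0, at rank 7 as deposited and rank 8 after rescaling. With 1 library per genotype, neighbours in the order such as ATG8A and ATG8C cannot be said to differ.

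At the 2-fold mark 1 of the 9 genes, ATG8G, was higher in bts-1, or 11.1%, beside 1.92% of all tested genes. No ATG8 gene was at least 2-fold lower, beside 3.63% of all tested genes. At the 1.5-fold mark ATG8E joined it, giving 2 of 9 or 22.2% beside 7.53%. None was at least 1.5-fold lower, beside 9.32%. ATG8H fell just short of that lower mark as deposited and passed it with the pseudocount lowered to 0.1, at -0.69, or with chromosome 3 rescaled. The marks apply to log2 ratios of FPKM + 1, which are narrower than linear folds. In linear FPKM the bts-1 value of ATG8H was 0.613 of its Col-0 value. These shares rest on 1 or 2 genes, and 3.22% to 0.486% of all tested genes had ratios at least as high as theirs.

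**Figure D3:**
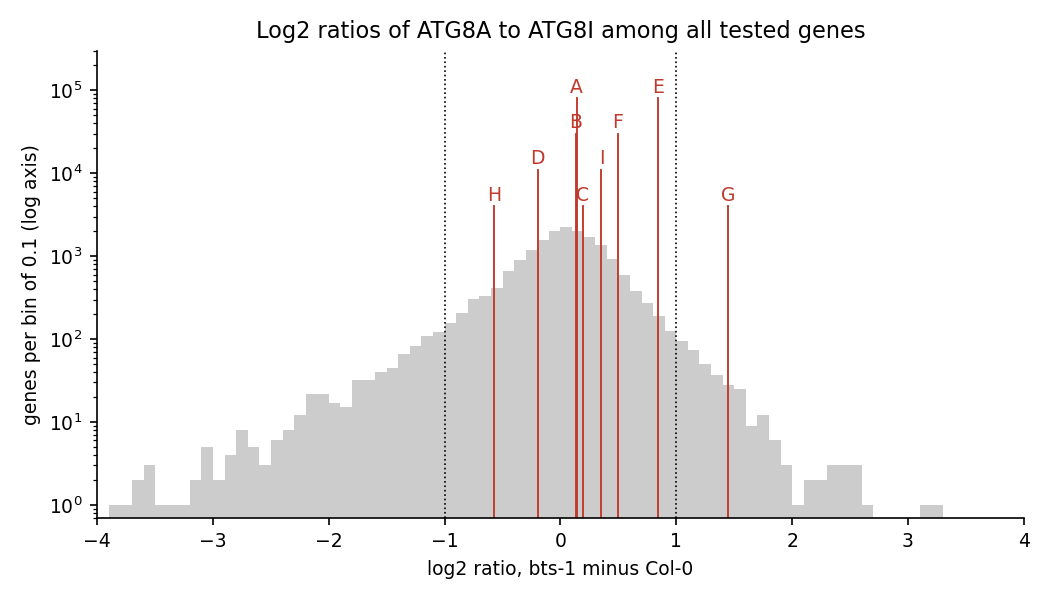
Log2 ratios (bts-1 minus Col-0) of 18510 tested genes in bins of 0.1, with the gene count on a log axis. Red lines mark ATG8A to ATG8I by their last letter and dotted lines the 2-fold marks; G lies beyond the upper mark at 1.45, E at 0.84 and the other 7 between -0.57 and 0.49.

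Summed over the 6 genes outside chromosome 3, ATG8 transcripts came to an FPKM of 211 in Col-0 and 298 in bts-1, a 1.42-fold difference. ATG8E and ATG8F made up 71.3% of that sum in Col-0 and 77.8% in bts-1. They also held 93.6% of the added FPKM, 81.8 of 87.4. With the rescaled chromosome 3 genes included, the 9 genes came to 242 and 340, a 1.41-fold difference. The share of ATG8G in that rescaled sum was 2.91% in Col-0 and 6.05% in bts-1. It held 13.7% of the FPKM added over the 9 genes, 13.5 of 98.5. As deposited the 9 genes came to 365 and 506, and the share of ATG8G was 2.36% in Col-0 and 4.98% in bts-1. Such shares depend on the uncertain level of ATG8I, which was 38.4% of the deposited Col-0 sum and 4.27% of the rescaled one.

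The 250 bases before the annotated start of each gene were searched on both strands for TGACG, the core element of TGA-type bZIP factors, CACGTG, the G-box bound by bZIP and bHLH factors, and TATCCA, an element described in sugar-starved rice cells. TGACG was present upstream of 6 of the 9 genes, ATG8A, ATG8E, ATG8F, ATG8G, ATG8H and ATG8I, and in 18.6% of 27443 such windows of nuclear protein-coding genes. CACGTG was found in 0 of the 9 windows and in 6.49% of all. TATCCA was found in 4 of the 9, those of ATG8B, ATG8D, ATG8H and ATG8I, and in 13.6% of all. Where TGACG is followed by TG it shares letters with a G-box, but no full G-box is present.

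The windows of the 3 genes with the highest ratios and of ATG8H, the lowest, are given 5′ to 3′ in the direction of transcription, with capitals on these motifs in either orientation. Coordinates are those of TAIR10.1; the deposited table has no coordinates, so none were carried between builds.
ATG8E (chr2:18624014-18624263, plus strand): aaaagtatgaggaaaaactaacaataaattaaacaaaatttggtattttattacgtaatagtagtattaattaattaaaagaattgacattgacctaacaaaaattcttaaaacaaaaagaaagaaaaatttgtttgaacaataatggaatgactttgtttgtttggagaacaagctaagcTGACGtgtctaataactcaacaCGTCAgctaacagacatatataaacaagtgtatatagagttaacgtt
ATG8F (chr4:9308539-9308788, minus strand): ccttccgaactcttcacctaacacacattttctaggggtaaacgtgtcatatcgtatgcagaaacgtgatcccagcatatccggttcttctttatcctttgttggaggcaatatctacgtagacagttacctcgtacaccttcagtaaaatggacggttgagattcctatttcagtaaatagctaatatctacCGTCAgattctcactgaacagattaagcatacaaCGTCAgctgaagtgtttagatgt
ATG8G (chr3:22415501-22415750, plus strand): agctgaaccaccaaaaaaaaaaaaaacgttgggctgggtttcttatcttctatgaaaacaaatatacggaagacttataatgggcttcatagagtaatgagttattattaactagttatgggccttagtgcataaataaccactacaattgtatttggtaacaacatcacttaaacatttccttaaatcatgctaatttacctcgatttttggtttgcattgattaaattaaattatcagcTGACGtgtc
ATG8H (chr3:1956398-1956647, minus strand): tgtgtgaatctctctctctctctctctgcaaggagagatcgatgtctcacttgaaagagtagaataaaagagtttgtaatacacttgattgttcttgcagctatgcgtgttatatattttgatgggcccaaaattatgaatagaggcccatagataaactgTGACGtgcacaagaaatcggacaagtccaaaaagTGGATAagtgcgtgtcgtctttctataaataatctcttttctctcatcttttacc
The windows of ATG8E and ATG8F hold 2 copies of TGACG each and that of ATG8G holds 1. That of ATG8H, which was lower in bts-1, also holds 1 copy. Those of ATG8A and ATG8I, both higher in bts-1, hold 1 and 3. The windows of ATG8B and ATG8C, both higher, and of ATG8D, which was lower, lack the motif. The windows were not cut where another gene lies in them. Whether copies in the ATG8I window fall within the transfer RNA gene listed after ATG8I was not tested. Any link between the motif and the ratios was not tested. A match describes these letters in this window and shows no binding.

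The rest of the autophagy machinery was mostly a little higher in bts-1. Of 31 genes in 4 lists of core machinery, 29 had a value and 27 of those, or 93.1%, had a positive ratio, beside 54.8% of all tested genes. Their median ratio was 0.26, beside 0.04. A further 2 listed genes, ATG14A (AT1G77890) and ATG14B (AT4G08540), were set aside because the table describes them as RNA polymerase II proteins. Both had negative ratios, -0.21 and -0.19, and with them the count was 27 of 31, or 87.1%. Past 1.5-fold, 2 of the 29 were higher and 1 was lower, beside 7.53% and 9.32% of all tested genes, and 0 passed 2-fold in either direction, beside 1.92% and 3.63%. Without chromosome 3 there were 17 positive ratios of 19, with a median of 0.23. Their ratios are small one by one and are described by their counts only.

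The genes that process and attach ATG8 had positive ratios in 8 of 8 cases with a median of 0.28. ATG10 (AT3G07525), the enzyme that attaches ATG12 to ATG5, stood at 1.07 and 1.59, a ratio of 0.52. ATG3 (AT5G61500), which transfers ATG8 to the lipid, stood at 4.66 and 5.04, a ratio of 0.37. The ratio was 0.34 for ATG16 (AT5G50230), the partner of ATG5, and 0.29 for the protease gene ATG4A (AT2G44140). None of the 8 log2 ratios of FPKM + 1 passed the 1.5-fold mark as deposited. For ATG10, near the minimum, the FPKM itself was 1.10 in Col-0 and 2.00 in bts-1. ATG10 is on chromosome 3 and had levels of 1.73 and 2.39 and a ratio of 0.66 on rescaling.

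The ATG1 kinase complex, which starts autophagosome formation, had 7 of 8 positive ratios and a median of 0.28. ATG101 (AT5G66930), a subunit that binds ATG13, stood at 3.64 in Col-0 and 4.33 in bts-1, a ratio of 0.69. It was the 1 member of the 8 at least 1.5-fold higher, or 12.5%, beside 7.53% of all tested genes. The scaffold genes ATG13B (AT3G18770) and ATG13A (AT3G49590) had ratios of 0.51 and 0.33, and ATG11 (AT4G30790) of 0.34.

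Genes for ATG9 and the lipid delivery machinery had 8 of 9 positive ratios with a median of 0.20. ATG18F (AT5G54730), one of a family of phosphoinositide-binding proteins, went the other way, at 4.20 in Col-0 and 3.39 in bts-1, a ratio of -0.81. ATG2 (AT3G19190), which moves lipids into the growing membrane, stood at 6.33 and 6.93, a ratio of 0.60. It is on chromosome 3, and after rescaling its levels were 3.59 and 4.16 and its ratio was 0.57, just under 1.5-fold. ATG18C (AT2G40810) and ATG18A (AT3G62770) had ratios of 0.57 and 0.35.

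The phosphatidylinositol 3-kinase complex marks the membrane for these proteins. Of its genes that were kept, 4 of 4 had positive ratios, with a median of 0.30. ATG14A and ATG14B, listed for this complex but set aside, had negative ratios of -0.21 and -0.19. The kinase subunit gene VPS15 (AT4G29380) had a ratio of 0.44, ATG6 (AT3G61710) of 0.33 and VPS34 (AT1G60490), the catalytic subunit, of 0.26. VPS38 (AT2G32760), of the form of the complex that acts in vacuolar sorting, stood at 2.88 and 3.07, a ratio of 0.19.

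Of 12 genes for proteins that bind ATG8 as receptors or adaptors, 9, or 75%, had a positive ratio, beside 54.8% of all tested genes. Their median was 0.22, beside 0.04. TSPO (AT2G47770), a stress-induced membrane protein that binds haem, is degraded through autophagy. It stood at 1.77 in Col-0 and 0.44 in bts-1, a ratio of -1.33. It was the 1 gene of these 12 past 2-fold, beside 3.63% of all tested genes at least 2-fold lower. Its FPKM was 2.41 and 0.353, so it passed the minimum FPKM of 1 through Col-0 only. ATI1 (AT2G45980), an ATG8-interacting protein found on bodies that carry plastid proteins under carbon starvation, stood at 4.95 and 5.66, a ratio of 0.71. ORM2 (AT5G42000) and ORM1 (AT1G01230), which link ATG8 to the turnover of an immune receptor, had ratios of 0.39 and 0.35. NBR1 (AT4G24690), the receptor for ubiquitin-tagged aggregates, named after its value was seen, stood at 5.81 and 6.04, a ratio of 0.22.

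**Figure D4:**
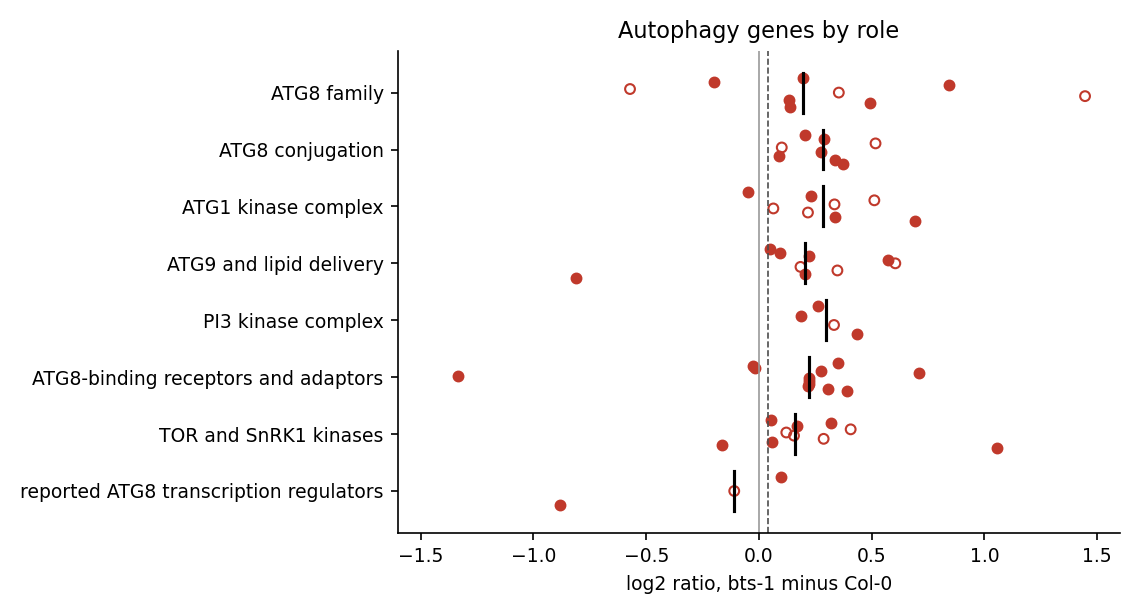
Log2 ratio (bts-1 minus Col-0) of each gene by role, with filled circles for genes outside chromosome 3, open circles for chromosome 3 genes and black bars for list medians. The dashed line is the median of all tested genes, 0.04. The medians of the ATG8 genes and of the next 6 lists lie above it, from 0.16 to 0.30, and ATG8 spans -0.57 to 1.45. ATG14A and ATG14B, which were set aside, are not drawn.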

How the data were processed

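The authors deposited 1 table with a value per gene for each of the 2 libraries, named as normalized FPKM. The values were read as log2(FPKM + 1): the wild-type column starts at 0, the bts-1 column at 0.15, and both end at 15.2. The log2 step is not described per the labels' protocols or the file header. Sorted values of the columns are equal within 0.001 at 99.1% of ranks, as after quantile normalization, which would remove an overall difference between libraries. CASAVA 1.8.2, cutadapt 1.12, TopHat2 2.1.0, Bowtie, HTSeq 0.9.1 and the TAIR10 build are named per the submitters' processing notes, without roles. Depth is unknown, since the table holds no counts.

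FPKM was recovered as 2 to the power of the value minus 1. After leaving out 2 rows with an identifier and no annotation, 18510 of 18615 genes reached an FPKM of 1 in one library or both and form the tested genes. Genes at a log2 ratio past 2-fold or 1.5-fold were counted, with no test. The members, their branches, the gene lists and the motifs were chosen with earlier results of these data known, and the genes named are the 9 members, list genes past 1.5-fold and up to 4 per list with the widest ratios. No gene is named for a pattern like that of ATG8, since 2 libraries give 1 ratio per gene. Alternatives were pseudocounts of 0.1 and 5, no minimum FPKM or one of 5, centring of the ratios on the median nuclear gene, and chromosome 3 rescaled or left out; rescaling with transfer RNA genes skipped was added after the data were seen. Exon lengths, sequences and coordinates are from RefSeq TAIR10.1. Python 3.11.15, pandas 2.3.3 and numpy 2.4.6 were used, and the counting was tested on simulated data.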

Additional observations from a re-analysis of the deposited data

How the results depend on the processing

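A pseudocount or a factor common to both libraries cannot change the sign of a ratio. Centring on the median of nuclear genes could, and 9 of 9 ATG8 ratios kept theirs. With a pseudocount of 5 the ratios of ATG8D and ATG8H were -0.13 and -0.33, more than 1.5 times smaller than reported. ATG8G ranged from 1.15 to 1.54, ATG8E from 0.79 to 0.85 and ATG8F from 0.46 to 0.50. Without chromosome 3 the ATG8 genes at least 2-fold higher fell from 1 to 0 and those at least 1.5-fold higher from 2 to 1, because ATG8G is on it. Skipping transfer RNA genes put the wild-type level of ATG8I at 8.39 with a ratio of 0.36. Over all tested genes, those at least 2-fold higher were 735 with a pseudocount of 0.1, 101 with 5 and 198 at a minimum FPKM of 5, against 356; those at least 2-fold lower were 254 with a pseudocount of 5, against 672. At 1.5-fold, 470 higher and 869 lower genes were counted with a pseudocount of 5 and 837 higher at a minimum of 5, against 1394 and 1726. The median of the 3 reported regulators of ATG8 transcription was -0.062 with a pseudocount of 5, -0.88 at a minimum of 5, where HY5 alone remained, and -0.39 without chromosome 3, against -0.11. No paired analysis was possible because each genotype has 1 library.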

Other observations

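Of 10 genes for the kinases that set autophagy by nutrient state, 9 had a positive ratio, beside 54.8% of all tested genes, with a median of 0.16 beside 0.04. Without the chromosome 3 members the median was 0.11. KINbeta1 (AT5G21170), a regulatory subunit of the energy-sensing kinase SnRK1, stood at 6.29 in Col-0 and 7.34 in bts-1, a log2 ratio of 1.05. It was the 1 gene of these 10, or 10%, at least 1.5-fold higher, beside 7.53% of all tested genes. It also passed the 2-fold mark, beside 1.92% of all tested genes at least 2-fold higher. KIN10 (AT3G01090), a catalytic subunit of SnRK1, stood at 4.33 and 4.74 as deposited and at 4.73 and 5.14 with chromosome 3 rescaled, a ratio of 0.41 in both, and KIN11 (AT3G29160), the other, had a ratio of 0.29. TOR (AT1G50030), the kinase that represses autophagy when nutrients are ample, stood at 4.06 and 4.38, a ratio of 0.32. RAPTOR1A (AT5G01770), outside the naming rule and named after its value was seen, was the 1 negative member at -0.16.

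Of 3 genes for factors reported to act on ATG8 transcription, HY5 (AT5G11260), a light-response bZIP factor described as a repressor of autophagy genes, stood at 3.87 in Col-0 and 2.99 in bts-1, a log2 ratio of -0.88. HDA9 (AT3G44680), a histone deacetylase described as its partner in that role, stood at 2.45 and 2.34 as deposited, a ratio of -0.11, and at 3.33 and 3.21 with chromosome 3 rescaled. TGA9 (AT1G08320), a bZIP factor described as an activator of ATG8 genes, stood at 1.07 and 1.17, a ratio of 0.10. Whether these transcripts bear on the ATG8 ratios was not tested.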
